A study of Mus musculus with 60 samples.

Results

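The response of adult microglia to lipopolysaccharide was followed in the 13 libraries titled F_P60 of a series of 60. Members were taken by title: 6 libraries titled F_P60_LPS and 7 titled F_P60_Sal. All come from C57BL/6N mice at postnatal day 60, with no genetic change named; the first group is labelled as treated with LPS and the second is the saline group. The series as a whole sequenced microglia of mice, the macrophages that live in the brain tissue, through development in both sexes and after this challenge at P60. RNA was extracted with Trizol and turned into stranded polyA libraries. The LPS dose, the route, the time from treatment to collection and the way in which microglia were isolated are all not stated in the labels. The labels do not tie the libraries to separate mice, so the p-values measure only the spread between these libraries. Dates in the labels place LPS 1, 2 and 3 on 8 April, LPS 4 on 9 April and LPS 5 and 6 on 10 April. Saline 1 is dated 27 March, saline 2 to 5 are dated 31 March, and saline 6 and 7 are dated 3 April. No date holds both treatments, so treatment and date cannot be told apart.

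LPS is a cell wall component of Gram-negative bacteria. It is handed by LPS-binding protein and CD14 to a complex of TLR4 and MD-2, which signals along a MyD88 branch towards NF-kB and inflammatory cytokines, and along a TRIF branch towards interferon beta. Secreted interferon then acts back on the cells and switches on antiviral genes, many of which carry interferon-stimulated response elements in their promoters. LPS given to the body also acts on brain endothelium, which puts out adhesion molecules, and raises circulating glucocorticoids.

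Levels below are CPM, deposited counts scaled to a library total of 1e6. Changes are log2 fold changes of LPS over saline ± SE from edgeR's quasi-likelihood test, fitted over the 4 P60 groups of both sexes. Adjusted p-values are Benjamini-Hochberg over the 10538 genes tested, and a gene is said to have risen or fallen at an adjusted p under 0.05. Total counts ran from 804990 to 1401251 in the LPS libraries and from 802016 to 3169966 in the saline libraries. The X-silencing RNA Xist was at 1147 to 2812 CPM (median 2080) in the LPS libraries and at 1126 to 2526 CPM (median 1874) in the saline libraries, as their titles would have it. The sex characteristic calls LPS 3 and saline 6 male, but both had Xist in this range and 0 counts of the 4 Y-linked genes. Saline 1 and saline 3 held 31 and 106 Y-linked counts, the other 11 libraries 0 to 2, and the Y-linked Ddx3y passed the test (-4.23 ± 1.07, adjusted p = 0.0141, and 0.0716 without saline 3). The microglial markers were present in all 13 libraries: Tmem119 was at 543 to 2304 CPM (median 1113) with LPS and 837 to 1865 CPM (median 1474) with saline, and Csf1r at 3388 to 8951 CPM (median 6816) with LPS and 2901 to 10200 CPM (median 8253) with saline, lowest in saline 6. Choroid plexus RNA was present in most libraries, its main product Ttr (transthyretin) at 14390 to 69050 CPM (median 32650) with LPS and 162 to 119800 CPM (median 26320) with saline. Saline 5 was the low library there, and saline 6 the high one, and what choroid plexus RNA adds to the results below was not tested. Saline 6 also stood apart by low immediate early genes and high ribosomal protein genes, and LPS 3 by low interferon-response genes. LPS 2 was the lowest LPS library for the NF-kB and immediate early gene lists, as described below.

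The F-titled LPS libraries differed from saline mainly by rises. Among the largest were those of acute-phase and secreted defence genes, the endothelial selectins, interferon-induced GTPases and antiviral interferon-response genes. In all, 439 genes rose (4.17% of those tested) and 94 fell (0.892%), while the median over all tested genes was -0.01. Of the rises, 41 were at least 16-fold, 148 lay between 4-fold and 16-fold, 185 between 2-fold and 4-fold, and 65 were smaller. Of the falls, 65 were under 2-fold and 29 larger. Without LPS 3, 445 genes rose (4.2%) and 119 fell (1.12%), with 413 of the 439 rises and 79 of the 94 falls called in both. In 212 of the 439 rises every LPS library lay above every saline library, a pattern that 218 genes (2.07%) showed in all. Of the 94 falls, 33 had every LPS library below every saline library, against 51 genes (0.484%) in all. The counts of list members given below are to be read beside these shares of all tested genes.

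**Figure D1:**
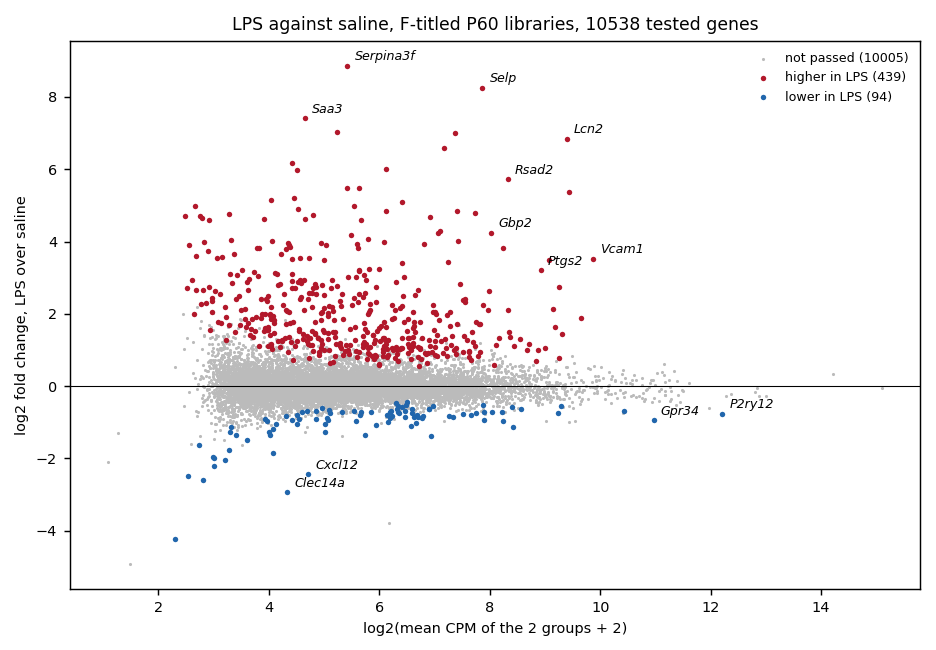
Log2 fold change of LPS over saline (vertical axis) against the log2 of the mean CPM of both groups plus 2 (horizontal axis) for the 10538 tested genes, with the 439 genes that rose in red, the 94 that fell in blue and the rest in grey. The rises reach 8.87 and the falls reach -4.23, that of the Y-linked Ddx3y.

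Among genes of the machinery that senses LPS, Cd14 rose and Tlr4 did not pass. Of the 16 receptors and co-receptors tested, 1 rose, 1 fell and 14 did not pass, with a median of -0.07; over all genes 4.17% rose and 0.892% fell, so the list's counts do not set it apart. The riser was Cd14, the co-receptor that loads LPS onto TLR4. Cd14 was at 487 to 1534 CPM (median 841) in LPS libraries, against 219.5 to 431 CPM (median 349.8) in saline libraries, a change of 1.43 ± 0.29 (adjusted p = 0.00156). All 6 LPS libraries lay above all 7 saline libraries, and LPS 3 was the lowest of the 6 at 487 CPM. With the 8 April LPS libraries alone the change was 0.84 and did not pass (adjusted p = 0.336). Tlr4 itself was at 63.7 to 128 CPM (median 100.3) with LPS and at 110.1 to 181 CPM (median 138) with saline, and its change of -0.50 ± 0.20 did not pass after adjustment (unadjusted 95% interval -0.89 to -0.11, adjusted p = 0.191). Ly96, which encodes MD-2, was at -0.38, Lbp at 0.78 and Tlr2, the receptor for bacterial lipoproteins, at 0.54; none passed. Cd180, a TLR4-like receptor best known in B cells, was lower (-0.73 ± 0.21, adjusted p = 0.0379), but the call was lost without any 1 of LPS 1, 2, 4, 5 and 6 and saline 1, 2, 4 and 5 (adjusted p up to 0.107).

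Among the 20 adaptors and kinases that act below the receptors, 3 rose and none fell (median 0.05). Myd88, the adaptor of the NF-kB branch, was at 79.1 to 200 CPM (median 142) with LPS, against 53.6 to 89.9 CPM (median 64.7) with saline (1.08 ± 0.22, adjusted p = 0.00185). LPS 3, at 79.1 CPM, lay within the saline range. Map3k8 (Tpl2), the kinase that feeds the ERK pathway, rose by 1.40 ± 0.24 and the non-canonical IkB kinase Ikbke by 2.42 ± 0.58. Each of these 3 calls held in all 13 fits that left out 1 library. Of the 11 NF-kB subunits and inhibitors, the atypical nuclear inhibitor Bcl3 rose by 2.72 ± 0.46 (adjusted p = 0.000193) and the cytosolic inhibitor Nfkbia (IkB alpha) by 0.78 ± 0.20 (adjusted p = 0.0146, and 0.0848 without LPS 4). The subunit genes were at 1.02 for Relb, 0.94 for Nfkb2, 0.73 for Rela, 0.35 for Nfkb1 and 0.11 for Rel, and none of these passed.

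Of 24 genes that dampen TLR signalling 11 rose and none fell (median 0.92), where 4.17% of all genes rose and 0.892% fell. Il1rn, the secreted antagonist of the interleukin-1 receptor, was at 32.9 to 227 CPM (median 176) with LPS, against 3.47 to 7.18 CPM (median 4.63) with saline. That is a change of 5.09 ± 0.52 (adjusted p = 1.14e-07) with no overlap, although LPS 3 reached only 32.9 CPM. Tnip3, a partner of the ubiquitin editor A20, rose by 3.97 ± 0.52, the inactive kinase Irak3 (IRAK-M) by 2.90 ± 0.46, the cytokine-signalling inhibitor Socs2 by 2.40 ± 0.37, its relative Socs3 by 1.64 ± 0.29 and the STAT3-induced corepressor Sbno2 by 2.38 ± 0.41. Tnfaip3, the gene of A20, was at 891 to 2318 CPM (median 1723) with LPS and 569 to 1933 CPM (median 1626) with saline, and its 0.31 ± 0.26 did not pass (95% interval -0.20 to 0.81). Il10, the anti-inflammatory cytokine, was low in both groups, at 10.0 ± 11.7 CPM in LPS libraries and 4.14 ± 5.10 CPM in saline libraries (SD, n = 6 and 7), and its 1.39 ± 0.62 did not pass.

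Of 17 cytokine genes tested, 5 rose, 1 fell and 11 did not pass (median 0.54). The list holds 25 genes, and the filter on low counts admits a gene that is high with LPS alone. The count that rose therefore rests partly on the change itself. The largest rise was that of Csf3, which encodes the neutrophil growth factor G-CSF. Csf3 was at 33.9 to 136 CPM (median 52.96) with LPS and at 0 to 1.55 CPM (median 0) with saline, where 5 of the 7 libraries held no count (7.04 ± 0.73, adjusted p = 1.15e-07). Il6 was at 16.4 to 79.0 CPM (median 51.1) with LPS and 8.33 to 33.0 CPM (median 10.3) with saline (1.93 ± 0.41, adjusted p = 0.00294). The ranges overlapped, with LPS 3 at 16.4 CPM and saline 5 at 33.0 CPM. Il12b, the p40 chain of interleukin-12, rose by 3.66 ± 0.79 (adjusted p = 0.00346), yet LPS 2 and LPS 3 were at 1.24 and 1.03 CPM, inside the saline range, and the other 4 at 9.55 to 34.3 CPM. The death ligand Tnfsf10 (TRAIL) rose by 2.04 ± 0.28. Tnfsf9 and Il16 passed at 1.86 and -0.88 (adjusted p = 0.0369 and 0.0474), but the calls were lost without any 1 of LPS 1, 2 and 4 and saline 1 to 7 for Tnfsf9, and of LPS 2, 4, 5 and 6 and saline 2 to 5 for Il16 (adjusted p up to 0.131 and 0.153).

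Among the cytokines that did not pass were Il1b, Il1a and Tnf. Il1b (interleukin-1 beta) was at 238 to 648 CPM (median 489) with LPS and 132 to 392 CPM (median 339) with saline, a change of 0.56 ± 0.37 that did not pass (95% interval -0.17 to 1.30). Il1a was at 0.16 (interval -0.46 to 0.79) and Tnf at 0.54 (interval -0.11 to 1.19). For all 3 the groups overlapped, and these libraries leave room for a change up to the upper bound of each interval.

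Of 24 chemokine genes 17 passed the filter on low counts, which admits a gene that is high with LPS alone. Of these 17, 9 rose and 1 fell (median 0.99). Cxcl10, which draws T cells and is induced by interferon, was at 161 to 1876 CPM (median 934) with LPS, against 41.7 to 149 CPM (median 78.2) with saline (3.48 ± 0.40, adjusted p = 6.3e-07). LPS 3 was the low library at 161 CPM, above all saline libraries, the highest of which was at 149 CPM. Its relatives Cxcl9 and Cxcl11 rose by 4.62 ± 0.52 and 4.91 ± 0.55, and the neutrophil attractants Cxcl1 and Cxcl2 by 4.67 ± 0.50 and 1.78 ± 0.38. Ccl5 (RANTES) was at 24.8 to 69.5 CPM in 5 LPS libraries and had no count in LPS 3, against 0.926 to 10.2 CPM (median 3.47) with saline (3.55 ± 0.61, and 3.80 without LPS 3). Cx3cl1 (fractalkine), made by neurons and activated endothelium as the ligand of the microglial receptor CX3CR1, was at 69.6 to 154 CPM (median 95.6) with LPS and 3.42 to 25.9 CPM (median 15.4) with saline (2.73 ± 0.27, adjusted p = 5.71e-08), with no overlap. Ccl22, a ligand of CCR4, rose by 2.88 ± 0.64, and the monocyte attractant Ccl7 by 0.86 ± 0.25, a call lost without any 1 of LPS 1, 2, 3 and 6 and saline 1, 2, 3, 4 and 7 (adjusted p up to 0.0999). Cxcl12, a chemokine of endothelium and stroma, fell (-2.44 ± 0.49, adjusted p = 0.00164) and was at 2.60 to 12.1 CPM (median 6.16) with LPS and 19.5 to 135 CPM (median 26.2) with saline, without overlap. The monocyte attractant Ccl2 and the macrophage products Ccl3 and Ccl4 were at -0.15, 0.11 and 0.17, and none passed.

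Receptors for cytokines gave 6 rises and 1 fall among 33 (median -0.07), each of the 6 without overlap. Over all genes 4.17% rose and 0.892% fell, and 212 of the 439 rises were without overlap. Osmr, the oncostatin M receptor, rose by 3.01 ± 0.32, the common gamma chain Il2rg by 2.18 ± 0.30, and the interleukin-1 receptor chains Il1r1 (signalling) and Il1r2 (decoy) by 2.05 ± 0.29 and 2.35 ± 0.53. Il15ra and Il4ra rose by 1.39 ± 0.24 and 1.48 ± 0.31.

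Type I interferon-response genes rose, least so in LPS 3. Of the 39 genes tested, 29 rose, none fell and 10 did not pass, with a median of 1.83 beside -0.01 over all genes. Without LPS 3, 32 rose and the median was 1.94. Rsad2, which encodes the antiviral enzyme viperin, was at 16.4 to 1221 CPM (median 635) with LPS and 4.63 to 28.7 CPM (median 10.3) with saline (5.72 ± 0.59, adjusted p = 1.14e-07). LPS 3 was alone among the 6 at 16.4 CPM, inside the saline range, and the next was LPS 4 at 289.7 CPM. Without LPS 3 the change was 5.97 (adjusted p = 1.2e-10). The RNA-binding restriction factors Ifit1 and Ifit3 rose as well. Ifit1 was at 245 to 540.4 CPM in 5 LPS libraries and 33.9 CPM in LPS 3, against 5.13 to 22.8 CPM (median 13.7) with saline (4.83 ± 0.46). Ifit3 was at 226 to 591 CPM and 26.7 CPM, against 10.4 to 42.4 CPM (median 15.4) with saline (4.01 ± 0.46), and counts of Ifit3 may be shared with its near-identical copy. Oasl1, an OAS-like protein that restrains Irf7 translation, rose by 4.17 ± 0.49, the ubiquitin-like modifier Isg15 by 3.23 ± 0.40, and the interferon regulator Irf7 by 2.23 ± 0.39.

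Interferon-induced GTPases, which coat vacuoles that hold microbes, rose in 14 of 15 cases with a median of 3.18, and 12 of the 14 showed no overlap between the groups. Of all genes 4.17% rose, and 212 of those 439 rises showed no overlap. Gbp2 was at 238 to 959.9 CPM (median 461) with LPS and 18.5 to 42.4 CPM (median 24.3) with saline (4.24 ± 0.32, adjusted p = 4.26e-10). Iigp1 was at 45.2 to 449.7 CPM (median 239.8) with LPS and 6.94 to 28.7 CPM (median 8.52) with saline (4.30 ± 0.46, adjusted p = 2.43e-07). In both, LPS 3 was the lowest LPS library, at 238 and 45.2 CPM, but still above every saline library. Several of these genes have close paralogues, between which counts could be split.

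The promoters of these genes were searched for the interferon-stimulated response element, spelt as GAAA, any 2 bases and GAAA, on either strand. RefSeq windows on GRCm38.p6, 250 bases before to 50 bases after the start, were found for 8473 of the 10538 tested genes; that build differs from the mm9 of the counts. The element was present in 49 of 354 windows of genes that rose (13.8%), in 0 of 71 of genes that fell, in 271 of all 8473 (3.2%) and in 3.45% of all 32544 RefSeq windows. Among the risen genes it was in 11 of 22 windows of the type I interferon list and in 9 of 10 of the GTPase list. The windows of 3 antiviral genes and of Cxcl10, in each of which LPS 3 was the lowest LPS library, are shown because they carry it. The window of Oasl1, for which LPS 3 also stood apart at 5.14 CPM, held no copy. That of the acute-phase gene Saa3 held 1, which begins 125 bases before the start. Whether the element goes with the level in LPS 3 was not tested. Capitals mark the element, read in either direction, and any AP-1 site, spelt TGANTCA, as in the Rsad2, Ifit3 and Cxcl10 windows.
Rsad2, chr12:26456403-26456702, minus strand: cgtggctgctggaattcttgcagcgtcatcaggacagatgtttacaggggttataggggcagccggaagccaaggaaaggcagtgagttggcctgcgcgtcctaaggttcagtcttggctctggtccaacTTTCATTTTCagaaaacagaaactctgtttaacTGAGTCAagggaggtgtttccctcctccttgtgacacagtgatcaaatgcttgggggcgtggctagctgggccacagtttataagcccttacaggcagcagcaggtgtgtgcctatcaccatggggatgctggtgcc
Ifit1, chr19:34640639-34640938, plus strand: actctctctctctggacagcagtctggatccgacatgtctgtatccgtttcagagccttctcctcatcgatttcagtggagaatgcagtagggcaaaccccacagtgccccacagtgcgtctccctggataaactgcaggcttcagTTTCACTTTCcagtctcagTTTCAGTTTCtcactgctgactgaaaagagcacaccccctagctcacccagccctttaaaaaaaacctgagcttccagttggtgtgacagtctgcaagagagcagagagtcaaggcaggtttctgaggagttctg
Ifit3, chr19:34583279-34583578, plus strand: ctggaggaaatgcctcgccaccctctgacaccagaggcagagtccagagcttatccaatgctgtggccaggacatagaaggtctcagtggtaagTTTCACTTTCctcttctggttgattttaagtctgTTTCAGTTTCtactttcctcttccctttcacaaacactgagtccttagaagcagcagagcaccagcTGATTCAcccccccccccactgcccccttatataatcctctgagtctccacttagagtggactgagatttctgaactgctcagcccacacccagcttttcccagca
Cxcl10, chr5:92348840-92349139, minus strand: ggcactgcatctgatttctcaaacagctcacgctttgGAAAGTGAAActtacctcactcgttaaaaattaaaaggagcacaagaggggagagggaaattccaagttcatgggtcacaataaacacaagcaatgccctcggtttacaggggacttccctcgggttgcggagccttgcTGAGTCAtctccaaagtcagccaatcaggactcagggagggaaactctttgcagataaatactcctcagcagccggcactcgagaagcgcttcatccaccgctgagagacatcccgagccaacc
In Ifit1 the 2 copies begin 104 and 85 bases before the start, and in Ifit3 the 2 copies begin 156 and 122 bases before it. Rsad2 has 1 copy at 120 bases before the start and Cxcl10 has 1 at 213 bases. An NF-kB site, spelt as GGG, any 2 bases and TTTCC, on either strand, was in 14 of the 354 windows of genes that rose (3.95%), against 1.62% of all tested genes and 1.61% of all windows. With A and C as its free bases, the NF-kB site was in 1 of the 354 (0.282%). It was in 0.189% of all tested genes and 0.157% of all windows. A glucocorticoid response element was also searched for and was in 1 of the 354 (0.282%). It was in 0.224% of all tested genes and 0.406% of all windows. So few windows do not set the risen genes apart for either spelling. A match says that these letters occur, not that a factor was bound.

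**Figure D2:**
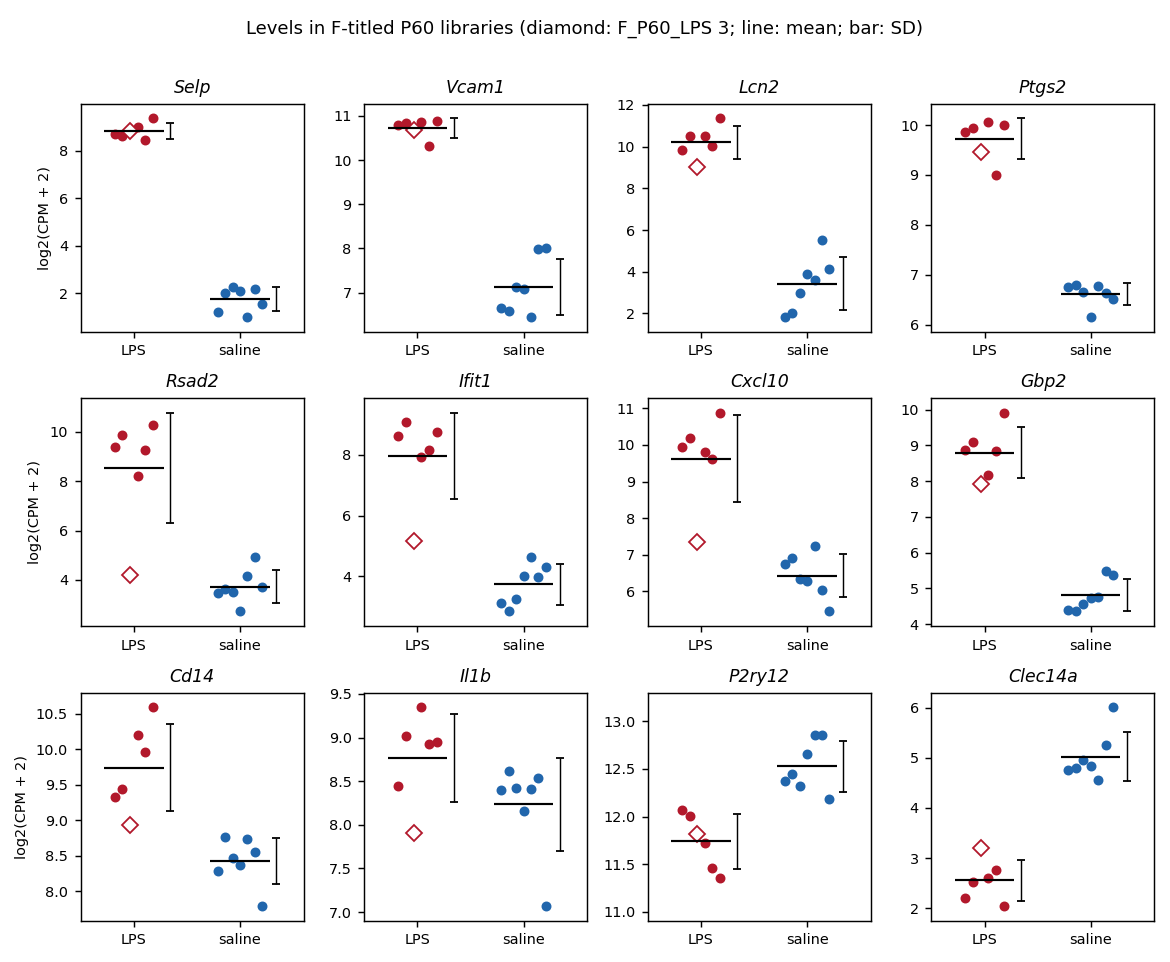
Levels as log2 of CPM plus 2 (vertical axis) in the 6 LPS libraries (red, left) and the 7 saline libraries (blue, right) for 12 genes; each point is a library, the line is the group mean, the bar the SD, and the open diamond LPS 3. The diamond lies with the other LPS libraries for Selp and Vcam1 and far below them for Rsad2, Ifit1 and Cxcl10, while the groups overlap for Il1b.

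Adhesion molecules of activated endothelium gave some of the largest changes, and did so in every LPS library. Selp (P-selectin), which captures leukocytes from the blood, was at 349 to 652 CPM (median 435) with LPS and 0 to 2.71 CPM (median 2.05) with saline (8.26 ± 0.57, adjusted p = 1.35e-10). Sele (E-selectin) was at 141 to 459.8 CPM (median 243) with LPS and 0 to 5.81 CPM (median 2.28) with saline (6.59 ± 0.82, adjusted p = 2.2e-06). LPS 3 held 456 CPM of Selp and 209 CPM of Sele, amid the other LPS libraries, and no saline library came near them. Vcam1, the ligand of the integrin VLA-4, was at 1266 to 1874 CPM (median 1797) with LPS and 85.4 to 254 CPM (median 134) with saline (3.53 ± 0.32), and Icam1, the ligand of LFA-1, rose by 1.87 ± 0.34 (adjusted p = 0.000391). Over all genes 4.17% rose and 0.892% fell, and 212 of the 439 rises were without overlap. Of the 24 adhesion and motility genes 6 rose, all without overlap, and 1 fell (median 0.41). Itga6, the laminin-binding integrin, was that fall at -0.71 (adjusted p = 0.044), lost without any 1 of LPS 2, 4, 5 and 6 and saline 1, 2, 3, 4, 5 and 7 (adjusted p up to 0.161). Darc (now Ackr1), a chemokine-binding receptor of venular endothelium, was at 146 to 581 CPM (median 290.4) with LPS and 0.387 to 8.73 CPM (median 1.85) with saline (7.01 ± 0.98). The proteoglycan-cleaving protease Adamts4 rose by 6.18 ± 0.75.

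The windows of the selectin genes hold no interferon-stimulated response element. Both hold an AP-1 site, in capitals, which begins 139 bases before the start in Selp and 73 bases before it in Sele. They are shown as the pair of adhesion genes with the largest rises, in which LPS 3 was not the lowest library.
Selp, chr1:164115014-164115313, plus strand: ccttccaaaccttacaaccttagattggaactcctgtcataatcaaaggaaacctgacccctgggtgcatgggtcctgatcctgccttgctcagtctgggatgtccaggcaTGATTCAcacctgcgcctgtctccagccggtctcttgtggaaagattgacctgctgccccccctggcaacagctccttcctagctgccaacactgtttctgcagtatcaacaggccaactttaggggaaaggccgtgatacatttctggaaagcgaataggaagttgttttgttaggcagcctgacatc
Sele, chr1:164047984-164048283, plus strand: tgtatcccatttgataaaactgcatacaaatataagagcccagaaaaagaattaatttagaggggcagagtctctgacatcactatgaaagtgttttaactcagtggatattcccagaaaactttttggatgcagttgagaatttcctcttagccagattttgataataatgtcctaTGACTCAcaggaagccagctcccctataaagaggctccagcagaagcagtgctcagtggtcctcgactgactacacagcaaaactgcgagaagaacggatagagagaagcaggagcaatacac
The AP-1 letters were in 41 of 354 windows of genes that rose (11.6%), in 4.9% of all tested genes and in 7.79% of all RefSeq windows. Of the windows of genes that fell, 3 of 71 held them (4.23%).

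Of 22 endothelial and mural markers 2 rose and 1 fell (median 0.19). As 4.17% of all genes rose and 0.892% fell, these counts do not set the list apart. Cdh5 (VE-cadherin) was at 107 to 191 CPM (median 134) with LPS and 32.4 to 122 CPM (median 39.9) with saline (1.49 ± 0.25, adjusted p = 0.000183), and saline 7, the highest, lay within the LPS range. The tight-junction gene Cldn5 was at 9.94 to 39.2 CPM (median 13.5) with LPS and 20.8 to 116 CPM (median 37.0) with saline, and -1.37 ± 0.44 did not pass (adjusted p = 0.0676, but 0.0391 without LPS 3, and under the threshold also without LPS 4 or saline 1, 4 or 5). Egfl7, a secreted factor of endothelium, fell (-1.84 ± 0.41, adjusted p = 0.00481). Tie1, an endothelial receptor, passed at 0.91 (adjusted p = 0.0472), a call lost without any 1 of LPS 3, 4 and 6 and saline 1 to 6 (adjusted p up to 0.188). Without LPS 3, 1 marker rose and 4 fell. The summed level of the whole marker list ran from 2270 to 3826 CPM with LPS and from 1620 to 6096 CPM with saline, the highest being saline 7. In bulk RNA, more or fewer cells of a type cannot be told apart from more or less RNA per cell, and what endothelial cells contribute to the adhesion result was not tested.

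Of 18 acute-phase and secreted defence genes 11 passed the filter on low counts, and these 11 rose. The filter admits a gene that is high with LPS alone, as Serpina3f and Saa3 were, so the count of tested genes that rose rests partly on the change itself and is given as a description. Lcn2 (lipocalin-2), which starves bacteria of iron, was at 515 to 2605 CPM (median 1240) with LPS and 1.58 to 43.6 CPM (median 10.2) with saline (6.85 ± 0.74, adjusted p = 2.48e-07). The serine protease inhibitor Serpina3f was at 32.6 to 146 CPM (median 76.9) with LPS and had 1 count in all saline libraries together. The ratio of its pooled CPM was 849, with a 95% counting interval of 152 to 33600, which covers counting error only. For the serum amyloid Saa3, at 11.3 to 73.3 CPM (median 44.7) with LPS and 2 counts in all with saline, the ratio was 233, with a 95% counting interval of 63.9 to 1932. Serpina3g rose by 5.48 ± 0.50; counts of the Serpina3 genes, a cluster of near copies, may be split between them. The complement genes C3 and Cfb rose by 2.47 ± 0.49 and 3.10 ± 0.45, the 2 that passed among 19 complement genes tested. Among rises of that size outside these lists, Fpr2, a receptor for formylated peptides and serum amyloid, was at 5.98 ± 0.70, and the myeloid gene Slfn4 at 6.01 ± 0.69.

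Ptgs2 and Ptges, enzymes of prostaglandin E2 synthesis, rose. Ptgs2 (cyclooxygenase-2) was at 513 to 1071 CPM (median 954) with LPS and 69.4 to 109 CPM (median 98.8) with saline (3.20 ± 0.37, adjusted p = 6.48e-07), and the terminal synthase Ptges rose by 3.65 ± 0.45. Both were without overlap and both were as high in LPS 3 as in at least 1 other LPS library. Irg1 (Acod1), which makes the antimicrobial metabolite itaconate, was at 19.5 to 132 CPM (median 107) with LPS and 0 to 5.42 CPM (median 0.926) with saline (5.48 ± 0.65). Cybb, the catalytic subunit of the phagocyte NADPH oxidase, rose by 1.66 ± 0.33 and the mitochondrial superoxide dismutase Sod2 by 1.34 ± 0.30. Nos2, the inducible nitric oxide synthase, was at 0 to 14.4 CPM (median 7.01) with LPS and 0 to 5.56 CPM (median 1.16) with saline, and 2.18 ± 0.73 did not pass (adjusted p = 0.0933, but 0.0405 to 0.231 over the fits without 1 library, passing without LPS 2 or saline 7). In all, 6 of the 16 genes of the prostaglandin and nitric oxide list rose, none fell and 10 did not pass (median 0.10).

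Of 20 glucocorticoid-induced genes 9 rose and none fell (median 0.81). Fkbp5, the co-chaperone of the glucocorticoid receptor, was at 316 to 750.2 CPM (median 530.4) with LPS and 37.4 to 244 CPM (median 105) with saline (2.11 ± 0.31, adjusted p = 2.5e-05). The zinc-finger factor Zbtb16 rose by 3.48 ± 0.46 and the kinase Map3k6 by 2.87 ± 0.40. The metal-binding metallothioneins Mt2 and Mt1 rose by 4.78 ± 0.52 and 2.33 ± 0.45; they are near copies of each other. Tsc22d3 (GILZ), Sgk1 and Per1, which glucocorticoids induce in many tissues, were at 0.29, -0.43 and 0.76, and none passed. Of 15 genes of a list of iron, heme and metallothionein genes, 5 rose, among them the metalloreductase Steap4 (3.90 ± 0.58), and 1 fell, the iron exporter Slc40a1 (-0.80 ± 0.19).

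Of 40 homeostatic microglial genes tested 36 did not pass, 3 fell and 1 rose, with a median of -0.24. Without LPS 3, 5 fell and 2 rose. The 3 falls were all of receptors of the P2Y family or close to it. P2ry12, which senses nucleotides from damaged cells, was at 2608 to 4299 CPM (median 3494) with LPS and 4644 to 7415 CPM (median 5598) with saline (-0.77 ± 0.21, adjusted p = 0.0275). All 6 LPS libraries lay below all 7 saline libraries. Gpr34, a lysophosphatidylserine receptor, was at 1050 to 1691 CPM (median 1369) with LPS and 1992 to 3848 CPM (median 2304) with saline (-0.95 ± 0.25, adjusted p = 0.0177), also without overlap. P2ry13, an ADP receptor, fell as well (-0.69 ± 0.20, adjusted p = 0.0381). These calls are close to the threshold: they were lost without LPS 4 or LPS 6 for all 3, without LPS 5, saline 4, saline 5 or saline 6 for P2ry12 and P2ry13, and without LPS 3 for P2ry13, with adjusted p up to 0.0892, 0.0569 and 0.117. Cx3cr1, the fractalkine receptor, was at -0.60 and the identity factor Sall1 at -0.96; neither passed, and Sall1 did so without LPS 3 (-1.29, adjusted p = 0.0453). The transcription factor Runx1 rose by 1.28 ± 0.25. Of the 24 genes of immature and disease-associated microglia 1 rose, the inhibitory receptor gene Lilrb4 (1.33 ± 0.26), and none fell (median -0.01).

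Among surface genes of immune communication, Cd40, Cd69 and Cd274 rose. Of 15 co-stimulation and checkpoint genes 5 rose: the co-stimulatory receptor Cd40 (3.78 ± 0.49), Tnfrsf9 (3.92 ± 0.87), the activation marker Cd69 (2.59 ± 0.42), the inhibitory ligand Cd274 or PD-L1 (2.48 ± 0.32) and the hyaluronan receptor Cd44 (1.82 ± 0.38). LPS 3 was the lowest LPS library in all 5, with 32.9 CPM of Cd274 within the saline range, where the others had 77.3 to 285 CPM. Tnfrsf9 was tested in only 7 of the 13 fits without 1 library, and was called in those 7. The filter on low counts admits a gene that is high with LPS alone, so the count of 5 may rest partly on the change itself. Of 21 MHC class I genes 4 rose, where 4.17% of all genes did. Among the 4 were the peptide transporter Tap1 (1.10 ± 0.25) and the class I transactivator Nlrc5 (1.13 ± 0.28, lost without LPS 6 at an adjusted p of 0.0897). No MHC class II gene of the 9 tested, too few to tell from the 4.17% of all genes that rose, passed by edgeR, by DESeq2 or by limma-voom, and 0 had an unadjusted p under 0.05 (median -0.19). Of 24 phagocytic, Fc and scavenger receptor genes 3 rose, Cd300lf (3.09 ± 0.41), Trem1 (3.06 ± 0.63) and Msr1 (1.24 ± 0.28). Among 25 inflammasome and cell death genes the death receptor Fas was at 52.5 to 87.0 CPM (median 78.9) with LPS and 3.87 to 18.5 CPM (median 8.10) with saline (3.01 ± 0.34), and the LPS-sensing caspase Casp4 and the apoptosis inhibitor Birc3 rose by 1.39 ± 0.30 and 1.39 ± 0.25. In that list 5 genes rose and 1 fell, the inflammasome adaptor Pycard or ASC (-0.82 ± 0.22, adjusted p = 0.0245), a call lost without any 1 of LPS 1, 2, 4 and 6 and saline 5 and 6 (adjusted p up to 0.0718).

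The lists that follow gave 0 to 3 calls each. Over all genes 4.17% rose and 0.892% fell, and in lists of this size counts of 0 or 1 do not set a list apart from all genes. None of 36 oxidative phosphorylation genes, 34 ribosomal protein genes, 7 cell division genes or 13 replication genes passed by edgeR, with medians of -0.11, -0.05, -0.000561 and 0.02. At an unadjusted p under 0.05 there were 0, 0, 0 and 1 such genes; DESeq2 called 0 in each list, and limma-voom called 1 cell division gene lower. Of 22 immediate early genes 1 rose, the AP-1 subunit Fosl2 (1.72 ± 0.29), and of 20 heat shock and unfolded protein genes 1 fell, the mitochondrial chaperonin Hspe1 at -1.07, a call lost without any 1 of LPS 2 to 6 and saline 1, 4, 5 and 6 (adjusted p up to 0.121). Of 19 glycolysis genes 3 rose, including the glucose transporters Slc2a6 (3.11 ± 0.55) and Slc2a3 (1.48 ± 0.29). Ch25h, which makes the antiviral oxysterol 25-hydroxycholesterol, was the 1 rise among 18 cholesterol genes, at 44.6 to 145 CPM (median 85.1) with LPS and 2.28 to 17.5 CPM (median 4.73) with saline (3.92 ± 0.47). The cell cycle inhibitor Cdkn1a (p21) rose by 1.06 ± 0.27, a call lost without LPS 6 (adjusted p = 0.0806).

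Falls were fewer than rises, with a median of -0.84 over the 94 falls and of 1.77 over the 439 rises. The largest among genes of at least 10 CPM in either group was Clec14a, an endothelial lectin, at 2.14 to 7.19 CPM (median 3.92) with LPS and 21.6 to 62.0 CPM (median 26.6) with saline (-2.94 ± 0.45, adjusted p = 3.69e-05), with no overlap and the call kept in all 13 fits without 1 library. Cxcl12, described above, and Pllp (plasmolipin) at -2.22 were kept in all 13 as well. Hhex, a homeobox factor, was at 15.1 to 57.6 CPM (median 21.6) with LPS and 17.5 to 96.8 CPM (median 83.2) with saline (-1.35 ± 0.31, adjusted p = 0.00681). Its lowest saline library was saline 6 at 17.5 CPM, inside the LPS range. Calls for Kcnj10, Nanos1, Lxn, St8sia4 and Hdac7, at -2.04, -1.49, -1.34, -1.27 and -1.76, were each lost in 2 to 10 of the 13 fits, all of them without LPS 5, with adjusted p up to 0.151. Kcnj10 also lost it without LPS 3, LPS 6, saline 1 or saline 3, and Hdac7 without saline 7. Nanos1 also lost it without LPS 2, 4 or 6 or saline 1, 2, 3, 4 or 7, and St8sia4 without LPS 2, 4 or 6 or saline 4, 5, 6 or 7. Lxn also lost it without LPS 1, 3, 4 or 6 or any 1 of saline 3 to 7. Over all 94 falls, 35 to 79 were called again in a fit without 1 library, against 347 to 417 of the 439 rises.

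Several markers of blood leukocytes rose. Of the 11 neutrophil markers tested 8 rose, and 6 did without LPS 3 (medians 2.51 and 2.50). The list holds 18 markers, and the filter on low counts admits a gene that is high with LPS alone. These counts and medians therefore rest partly on the change itself and are given as a description. S100a9, a calprotectin subunit that fills neutrophil cytosol, was at 234 to 459.6 CPM (median 278) with LPS and 10.3 to 176 CPM (median 38.7) with saline (2.40 ± 0.56, adjusted p = 0.00731). The granule protein Ngp was at 36.0 to 82.5 CPM (median 71.6) with LPS and 2.21 to 36.1 CPM (median 8.52) with saline (2.54 ± 0.66, adjusted p = 0.0171). Every LPS library exceeded every saline library for S100a9, with LPS 3 the lowest at 234 CPM. For Ngp the groups met, with LPS 2 at 36.0 CPM and saline 7 at 36.1 CPM. The myeloblast genes Mpo, Elane and Prtn3 and the surface marker Ly6g were not tested, being below the filter on low counts. Of 14 monocyte markers 6 rose, and 4 did without LPS 3; the receptor Ccr2 was at -0.55 and did not pass, while Ly6c2 passed at 2.73 and lost the call without any 1 of LPS 3, 4 and 6 and saline 1, 2, 3, 4, 5 and 7 (adjusted p up to 0.0959). Of 4 lymphocyte markers tested, Gzmb (granzyme B) rose by 2.75 ± 0.47, and the T cell genes Cd3e, Cd4 and Cd8a and the B cell gene Cd79a were not tested. The summed level of the neutrophil list, Lcn2 included, ran from 1154 to 3199 CPM with LPS and from 25.7 to 400.2 CPM with saline. Lcn2, described above among the acute-phase genes, made up a large part of that sum with LPS. The summed level of the monocyte list ran from 627 to 1160 CPM with LPS and from 237 to 852 CPM with saline. What such cells add to the acute-phase, Fpr2, Slfn4 and Il1r2 results was not tested. Of all genes 4.17% rose and 0.892% fell, so in the small lists that follow counts of 0 do not set a list apart. Astrocyte markers gave 2 rises in 10, the gap junction gene Gja1 (2.36 ± 0.43) among them. Border macrophage (8 tested), oligodendrocyte (7), neuron (1) and choroid plexus (10) markers gave none by edgeR. At an unadjusted p under 0.05 these 4 lists held 1, 2, 0 and 0 genes; DESeq2 called 0 in each, and limma-voom called 1 oligodendrocyte gene lower.

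**Figure D3:**
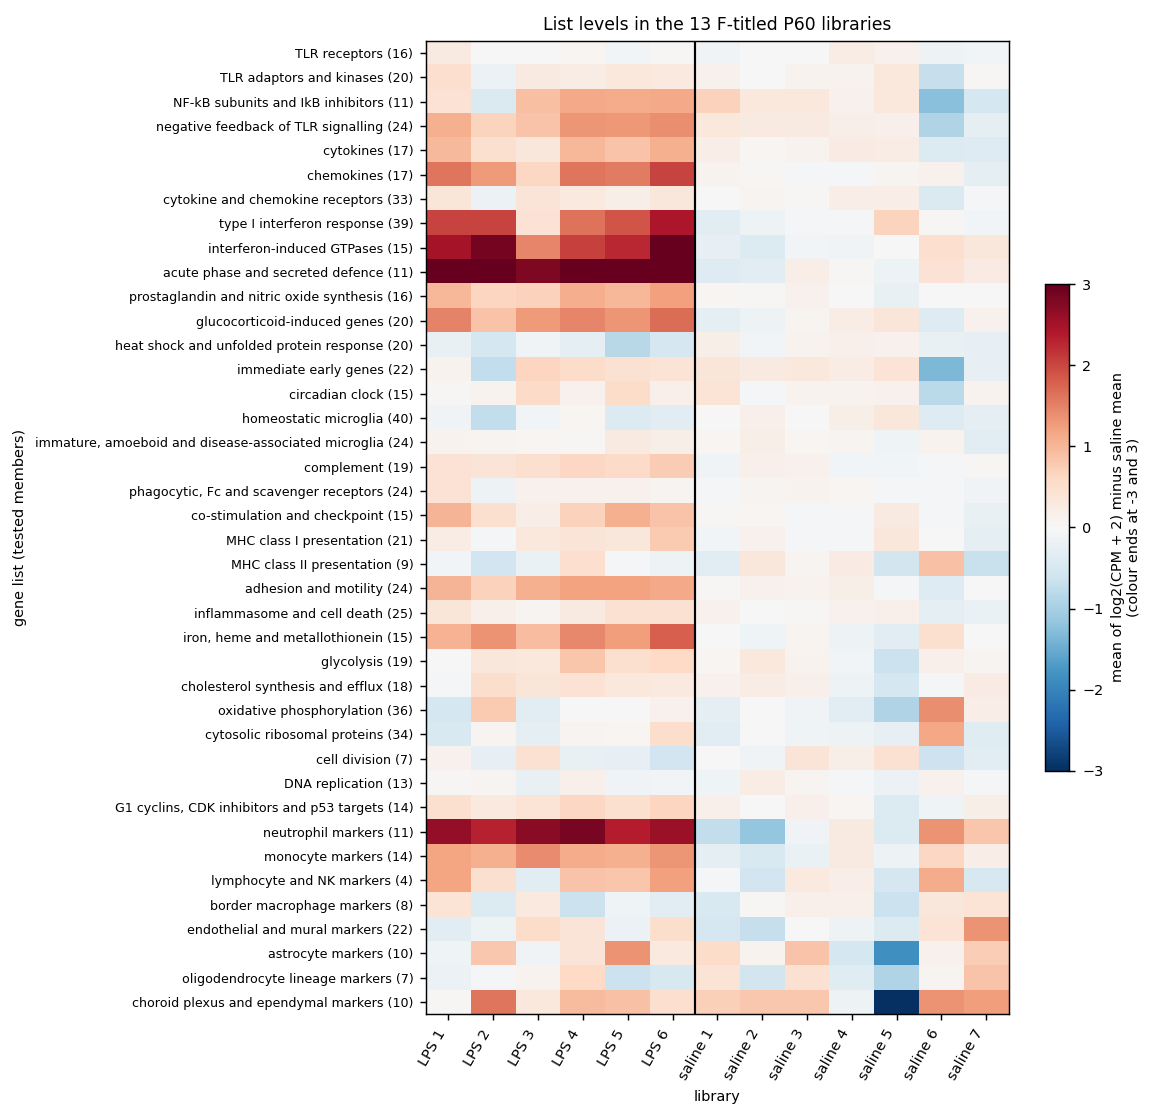
Mean of log2 of CPM plus 2 over the tested members of each gene list (vertical axis, number tested in brackets), minus the mean of the 7 saline libraries, in the 6 LPS and 7 saline libraries (horizontal axis); red is above and blue below the saline mean. The neutrophil and acute-phase rows are dark in all 6 LPS libraries, while the type I interferon row is pale in LPS 3.

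The LPS libraries were not alike. LPS 3 was the lowest of the 6 in 200 of the 439 genes that rose (45.6%), LPS 2 in 115, and LPS 6 in 9; LPS 6 was the highest in 166. In LPS 3, 122 of the 439 rises did not exceed the highest saline library, against 13 to 95 in each of the other 5. The shortfall was uneven over the lists. In the type I interferon list 22 of the 29 risen genes did not exceed the highest saline library in LPS 3. In each other LPS library 0 to 4 did not, and LPS 3 was lowest in 25 of 29. It was lowest in all 14 risen GTPases and all 5 co-stimulation genes, but in 1 of 6 adhesion genes and 2 of 8 neutrophil markers. The median level of the risen genes above the saline mean was taken on the scale of log2 of CPM plus 2. For the interferon list it was 0.50 in LPS 3 and 1.79 to 2.72 in the other 5. For the adhesion list it was 2.57 in LPS 3 and 2.76 to 3.31 in the other 5. As the mean over all tested genes of the interferon list, on that scale, LPS 3 was at 0.43. Saline 5 was at 0.67 and the other saline libraries at -0.34 to 0.03. LPS 3 thus lay above every saline library but saline 5, where the saline range of that list reached highest. LPS 3 shares its date, 8 April, with LPS 1 and LPS 2, which had 659.9 and 942 CPM of Rsad2. Its total of 972969 counts lies within the range of the other LPS libraries. Leaving it out moved the number of rises little, as given above. LPS 2 stood apart in other ways. In chi-square per gene, its pairs with other LPS libraries were at 13.12 to 19.96, and pairs without it at 4.437 to 10.36. As list means on the log2 scale above, LPS 2 was lowest for the NF-kB list at -0.44 and immediate early genes at -0.74. LPS 1 was next at 0.44 and 0.11. LPS 2 was also lowest for homeostatic microglial genes at -0.75 (next LPS 5 at -0.41). It was highest for choroid plexus markers at 1.62 (next LPS 4 at 0.95). No test was made of LPS 2 or LPS 3 against the others, which would be 1 library singled out by its values.

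**Figure D4:**
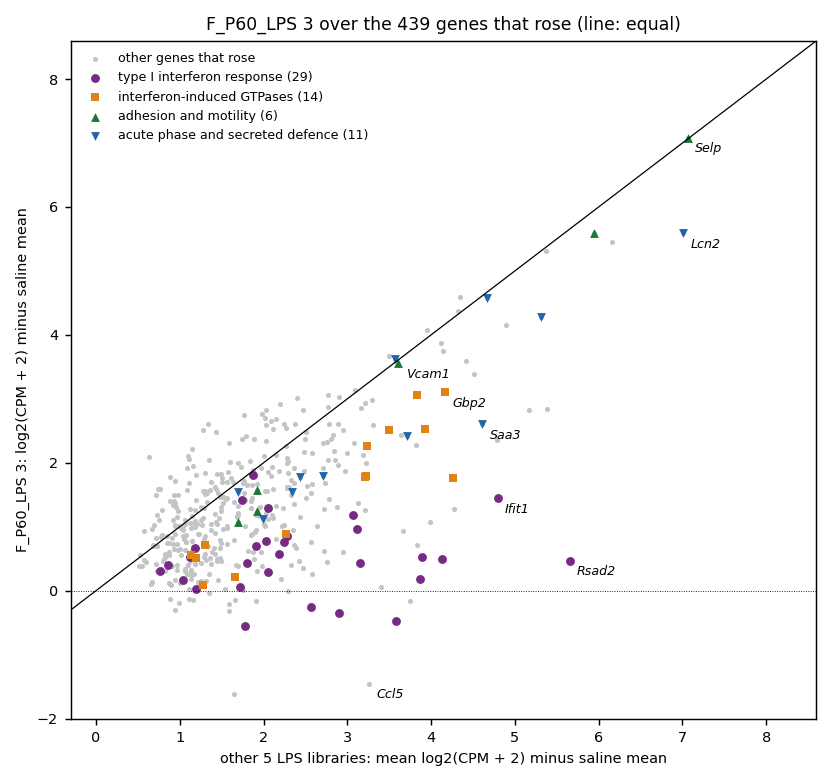
Level in LPS 3 (vertical axis) against the mean of the other 5 LPS libraries (horizontal axis), each as log2 of CPM plus 2 minus the saline mean, for the 439 genes that rose; symbols mark 4 lists and the line marks equality. Adhesion genes lie near the line, and the interferon-response genes lie below it.

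Split by date, the 3 libraries of 8 April alone against all saline libraries gave 223 rises and 10 falls, and the 2 of 10 April gave 330 rises and 58 falls. Of these, 220 and 297 rises were among the 439. LPS 4 is the only library of 9 April. The number of libraries differs between the splits, so the counts do not rank the dates.

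The same challenge in the 12 M-titled P60 libraries (7 LPS, 5 saline) gave 1256 rises (11.9%) and 798 falls (7.57%), with a median over all genes of -0.07. Of the 439 F-titled rises 359 were also called higher there, which is 81.8% of the F-titled and 28.6% of the M-titled rises. Of the 94 falls 27 were also lower there, 28.7% of the F-titled and 3.38% of the M-titled falls. The M-titled saline libraries were deeper, with a median total of 2376054 counts against 974197 for F-titled saline, and no library is shared between the titles. For the genes above, the F-titled change of 8.26 in Selp stood beside an M-titled 8.14 ± 0.60, 5.72 in Rsad2 beside 6.48 ± 0.68, 6.85 in Lcn2 beside 6.17 ± 0.79 and 3.20 in Ptgs2 beside 3.73 ± 0.43. For Il1b the F-titled 0.56 did not pass and the M-titled 2.44 ± 0.43 did (adjusted p = 0.000132), but the difference of -1.88 ± 0.55 did not pass (adjusted p = 0.0668).

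Tested directly, the F-titled LPS effect was above the M-titled one for 62 genes (0.588%) and below it for 31 (0.294%). Cx3cl1 differed by 2.28 ± 0.38 (adjusted p = 0.0181), and the F-titled libraries held 103 ± 28.5 CPM in LPS libraries and 15.3 ± 8.12 CPM in saline libraries (SD, n = 6 and 7). The M-titled ones held 52.3 ± 15.6 CPM with LPS and 41.4 ± 11.4 CPM with saline (SD, n = 7 and 5), so the groups lay apart in the F-titled libraries by more than their SDs, and not in the M-titled ones. Cldn5 differed by 3.54 ± 0.71 (adjusted p = 0.0344), and the F-titled libraries held 21.1 ± 14.1 CPM in LPS libraries and 54.9 ± 38.5 CPM in saline libraries. The M-titled ones held 3.32 ± 2.98 CPM with LPS and 110 ± 42.6 CPM with saline. In M-titled libraries Cldn5, a gene of endothelial tight junctions, changed by -4.91 ± 0.54. Tie1, Eln (elastin), Fbln1 (fibulin-1), Plxnd1 (a semaphorin receptor), Bcam and Pltp differed by 1.99 ± 0.39, 2.56 ± 0.50, 3.05 ± 0.59, 2.31 ± 0.47, 2.40 ± 0.47 and 1.75 ± 0.35. Tet2, a DNA demethylase, and Prune2 differed by -1.41 ± 0.28 and -1.35 ± 0.24. Outside those 10, Ccl3, Map3k8 and Egfl7 differed by -1.45 ± 0.34, -1.48 ± 0.35 and 2.96 ± 0.68. Some marker lists of other cell types had medians that differed between the titles, in both directions. Of the 22 endothelial and mural markers 2 rose and 1 fell in F-titled libraries (median 0.19), where 12 fell in M-titled libraries (median -1.04), and the difference passed for 4, with the F-titled effect above the M-titled one. The F-titled and M-titled medians were 0.48 and -0.93 for astrocyte markers, -0.13 and -0.86 for oligodendrocyte markers, and 0.13 and -1.18 for choroid plexus markers. In M-titled libraries 2, 4 and 1 genes of these lists fell, and 2 astrocyte markers rose. The medians were 2.51 and 3.66 for neutrophil markers, 1.85 and 3.13 for monocyte markers, and -0.13 and -0.17 for border macrophage markers. The difference passed for 0 genes in each of these astrocyte, oligodendrocyte, choroid plexus, neutrophil, monocyte and border macrophage lists. The part of such cells in the 93 differences was not tested.

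Which genes differed depended on single libraries. Without LPS 3, 1 gene was above (0.00945%) and 0 below by edgeR, although 2174 genes had an unadjusted p under 0.05, against 2255 with it, and DESeq2 on all libraries called 324 and 277. Without LPS 3 Cldn5 was at 3.26 (adjusted p = 0.0595) and Cx3cl1 at 2.27 (adjusted p = 0.0396). By edgeR 0 genes differed without LPS 4 or without LPS 6, 15 above and 2 below without LPS 5, at most 2 in a direction without saline 1, 3, 4 or 5, and 224 and 258 did without saline 6, and 268 and 193 without saline 7. Among the LPS libraries alone, 4 genes were higher in F-titled than in M-titled libraries (0.038%) and 11 lower (0.104%).

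**Figure D5:**
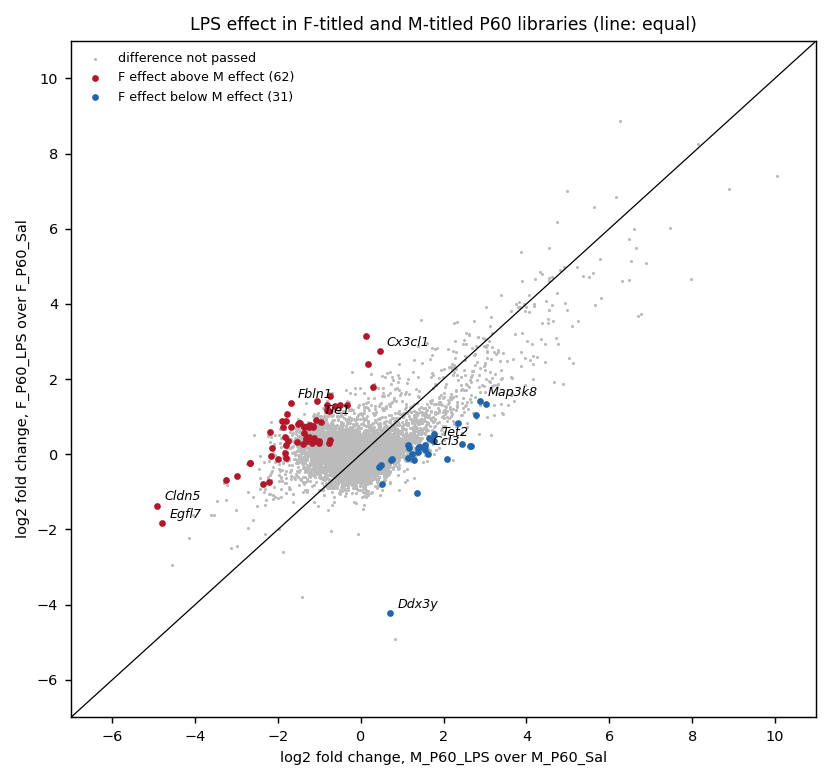
Log2 fold change of LPS over saline in F-titled libraries (vertical axis) against that in M-titled libraries (horizontal axis) for the 10538 tested genes; red marks the 62 genes whose F-titled effect was above the M-titled one, blue the 31 below it, and the line equality. Most strong rises lie near the line, and 58 of the 62 red points lie where the M-titled change is below 0.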

How the data were processed

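The 60 libraries of the series were deposited as 1 table of counts per transcript, whole numbers that were not normalized. Per the submitters' processing notes the authors used CASAVA 1.8.2, mm9 and edgeR; an aligner or counter is not stated there or in the labels. The deposited table of 28644 transcripts was reduced to 22869 gene symbols by taking the row that the table marks as best, or, for 881 symbols without a mark, the row of highest total. The 25 P60 LPS and saline libraries, in 4 groups by title, were fitted together without a replicate block with edgeR 4.0.16 (R 4.3.3): TMM factors, edgeR's own filter on low counts, quasi-likelihood test, Benjamini-Hochberg adjustment. Single-library CPM are counts over the library total. Total counts were 804990 to 1401251 in F_P60_LPS and 802016 to 3169966 in F_P60_Sal, and the median SE of a log2 change was 0.19 for genes of at least 100 CPM and 0.43 for genes under 10 CPM. Alternatives were DESeq2 1.42.0, limma-voom (limma 3.58.1) with sample weights, other scalings, filters and row choices, thinning to 802016 counts, F-titled libraries alone, a replicate block, single dates, other sex assignments and each library left out. No pair of libraries within F_P60_LPS or within F_P60_Sal agreed within sampling noise; other pairs were not compared.

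Genes named are the 12 largest rises and 12 largest falls among called genes of at least 10 CPM, up to 6 members of smallest p per list and direction, members of the receptor, NF-kB, cytokine and chemokine lists, and the 10 genes of smallest p in the F-titled minus M-titled difference. Socs3, Tnfaip3, Isg15, Irf7, Nos2, Tsc22d3, Sall1, Tmem119 and Csf1r lie outside that rule and were chosen after their values were seen. A few genes are not reported here. The libraries and gene lists were chosen with earlier results of these data known. Promoter sequences are RefSeq's on GRCm38.p6; 8400 genes were matched by accession, 73 by symbol, and 2065 had no window.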

Additional observations from a re-analysis of the deposited data

Results flagged for a closer look

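Within 1 group, 51 of 380 sets of values held 1 library whose gap to its nearest neighbour was large against the range of the group. Chance alone gives about 1 in 20 such cases, and genes of 1 response are not independent cases. In LPS 2 these were, in CPM, Nfkb1 at 147 and Rela at 54.7. In LPS 3 these were, in CPM, Saa3 at 11.3, Fpr2 at 4.11, Rsad2 at 16.4, Il1rn at 32.9, Cxcl9 at 4.11, Ccl5 at 0, Cxcl10 at 161, Ifit1 at 33.9, Ifit3 at 26.7, Oasl1 at 5.14, Isg15 at 14.4 and Irg1 at 19.5. In LPS 4 these were, in CPM, Tnf at 476. In LPS 5 these were, in CPM, Vcam1 at 1266 and Cd44 at 92.3. In saline 3 these were, in CPM, Serpina3f at 0.387. In saline 4 these were, in CPM, Saa3 at 1.16 and Tnfrsf9 at 3.47. In saline 5 these were, in CPM, Lbp at 4.55, Il6 at 33.0, Il1r2 at 0 and Ttr at 162. In saline 6 these were, in CPM, Nanos1 at 6.23, Hhex at 17.5, Nfkb2 at 1.25, Socs3 at 88.5, Sbno2 at 8.73, Per1 at 51.1, Cdkn1a at 34.9, Sall1 at 184, Cx3cr1 at 2622, Csf1r at 2901, Itga6 at 155, Ch25h at 17.5, Fosl2 at 17.5 and Ly6c2 at 8.73. In saline 7 these were, in CPM, Cxcl12 at 135 and Il1b at 132. Over whole gene lists, as the mean log2 level against the saline mean, the libraries that stood apart were saline 6 for the TLR adaptors and kinases list at -0.69, LPS 2 for the cytokine and chemokine receptors list at -0.17, saline 6 for the cytokine and chemokine receptors list at -0.44, saline 5 for the type I interferon response list at 0.67, saline 5 for the prostaglandin and nitric oxide synthesis list at -0.23, saline 6 for the immediate early genes list at -1.35, saline 6 for the circadian clock list at -0.81, saline 5 for the glycolysis list at -0.63, saline 6 for the cytosolic ribosomal proteins list at 1.16, saline 1 for the neuron markers list at -1.76 and saline 5 for the choroid plexus and ependymal markers list at -4.75. What set these libraries apart was not tested.

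The LPS effect differed between F-titled and M-titled libraries by edgeR's test of the difference for 15 of the genes named. On the log2 scale, F-titled minus M-titled, the differences were Egfl7 at 2.96, Map3k8 at -1.48, Cx3cl1 at 2.28, Ccl3 at -1.45, Cldn5 at 3.54, Tie1 at 1.99, Prune2 at -1.35, Fbln1 at 3.05, Bcam at 2.40, Eln at 2.56, Pltp at 1.75, Tet2 at -1.41, Plxnd1 at 2.31, Ddx3y at -4.94 and Lilrb4 at -1.69. By the same test 0 genes differed without LPS 4 or without LPS 6 and 1 without LPS 3, and DESeq2 called 324 higher and 277 lower.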

How the results depend on the processing

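The median change of all genes was -0.04 with library totals alone and nearer 0 with TMM or RLE factors. The 439 rises became 707 with limma-voom, 223 with the 8 April LPS libraries alone and 255 in the F-titled libraries alone with a replicate block; without 1 library they ran from 350 to 460. The 94 falls became 167 with DESeq2, 275 with limma-voom, 39 in the F-titled libraries alone, 58 with the 10 April and 10 with the 8 April LPS libraries, 158 without the libraries of disputed sex, 20 at an adjusted p under 0.01 and 29 at 2-fold or more. Without 1 library the falls ran from 41 to 120, being 47 without LPS 4, 52 without LPS 5, 41 without LPS 6 and 62 without saline 5. For the F-titled minus M-titled difference, 62 higher and 31 lower, DESeq2 gave 324 and 277 and limma-voom 740 and 590. With library totals alone 17 were lower, and with no filter 17. With sex taken from the characteristic, and without the libraries of disputed sex, 0 were higher and 0 lower by edgeR. Without 1 library the higher ran from 0 to 268 and the lower from 0 to 258. Between the LPS libraries of the titles, 4 higher and 11 lower, DESeq2 gave 45 and 85, thinning 7 and 18, and sex from the characteristic 0 and 0. There limma-voom gave 7 higher and the sum of rows 2 higher. Without 1 library the higher ran from 2 to 11 and the lower from 6 to 34. Ddx3y turned to 1.48 with sex from the characteristic. The causes were not tested.

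The labels do not say that replicate numbers pair the samples. Same-numbered LPS and saline libraries correlated at -0.328 to 0.31, 1 of 6 pairs was over 0.1, and 0 libraries correlated best with their own number. So few correlations, between libraries of different dates, cannot exclude pairing. With the replicate block over all 25 libraries there were 403 rises and 64 falls, 94 higher and 35 lower F-titled minus M-titled differences, and 2 higher and 4 lower between the LPS libraries of the titles. In the F-titled libraries alone the block gave 255 rises and 7 falls.

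Totals of 802016 to 3169966 counts in groups of 6 and 7 libraries limit low genes most. Date and treatment cannot be told apart.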
